A study of Homo sapiens with 19 samples.

Results

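The promoter read-out of the second QUASARR-seq element set with the pMYC minimal promoter was examined, with the emphasis on elements whose names begin with TRE5 or TRE6. QUASARR-seq is a massively parallel reporter assay in which each plasmid carries 1 candidate regulatory element and 2 barcodes, eaBC for enhancer activity and paBC for promoter activity. All elements of the pMYC set 2 paBC table with DNA signal above 0 were taken, which made 2569 of the 3422 element names found over all tables of the series. Of these, 964 were TRE5 elements from 555 loci and 373 were TRE6 elements from 231 loci; the other 1232 had other names. The 1534 elements of set 1, the earlier pool tested with the same minimal promoter, included 0 TRE5 or TRE6 elements.

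A promoter is the stretch of DNA at which RNA polymerase II starts a transcript, and an enhancer raises transcription from a promoter at another position. Many elements of either kind can do both, since active enhancers are often transcribed themselves. In a barcoded reporter assay, transcripts that start in an element carry its barcode, so barcode reads from RNA divided by barcode reads from the plasmid DNA measure how much transcript each copy of the element made. Start sites are often directional, so an element can give different ratios when it is inserted forward (fwd) or reversed (rev).

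The 4 libraries were 2 RNA and 2 DNA paBC libraries, numbered as replicates 1 and 2, from the human leukaemia line K-562. Every group shared the same plasmid pool, which joined elements to the minimal promoters pGAPDH, pMYC and pAPOBEC3F, and the pMYC plasmids were reported in a table of their own. Per the labels, each electroporation used 20 µg of plasmid, the cells of 5 electroporations were pooled into a technical replicate, and the pool was collected after 6 h and divided between RNA and DNA extraction. The elements were thus read on plasmids soon after transfection, not in their chromosomal place. Whether the numbers 1 and 2 stand for technical or for biological replicates is not given in the labels. They may be the 2 technical replicates of 1 biological replicate, so the p-values below measure only the spread between these libraries. Only reporter barcodes were measured, so the cell line could not be checked against marker genes.

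The DNA libraries held 3802678 and 3886115 reads over the 2569 elements and the RNA libraries 2116336 and 2360455. The median element had 999 and 1019 DNA reads and 365 and 417 RNA reads. The log2 RNA/DNA ratio of an element in each replicate was computed from the authors' scaled signal after adding the worth of 0.5 reads. Across elements, the ratios of replicates 1 and 2 correlated with a Pearson r of 0.98 (Spearman rho 0.96, n = 2569 elements of the same 4 libraries). The median SD between replicates was 0.17 on the log2 scale among elements with 5 to 318 RNA reads and 0.05 among those with 1839 to 80695, so differences between elements with many RNA reads are better resolved. No molecular identifiers are named in the sources used here, and reads need not be independent molecules.

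TRE5 and TRE6 elements covered a wide range of promoter levels, from -2.05 to 7.25 on the log2 scale, and the TRE6 elements lay higher as a group. With limma and Benjamini-Hochberg adjustment over all 2569 elements, 1325 elements were called higher in RNA than in DNA (51.6%) and 711 lower (27.7%), 79.3% in all. Of the 964 TRE5 elements, 466 were called higher (48.3%), 286 lower (29.7%) and 212 neither; both shares lie near the background. Of the 373 TRE6 elements, 267 were called higher (71.6%), 52 lower (13.9%) and 54 neither. The median log2 ratio was 0.17 for TRE5, 0.82 for TRE6 and 0.15 for the other elements, against 0.24 over all.

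The zero of these ratios is set by the scaling, and a median of 0.24 over all elements means that the typical element lay above it. Higher calls made up 65.1% of all calls as deposited, 62.0% among TRE5 and 83.7% among TRE6. After centring on the median of all elements these shares were 50.9%, 46.4% and 73.5%, with 366 TRE5 elements called higher and 423 lower. After centring on the number-named elements, a class of 37 with a median of -0.22, they were 78.1%, 75.5% and 90.5%. The TRE5 median therefore lay above 0 as deposited, at -0.07 with the first centring and at 0.39 with the second, while the TRE6 median was above 0 with each. Differences between elements or classes do not depend on this choice.

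High ratios made up a larger share of the TRE6 elements. A log2 ratio of at least 2 was reached by 368 elements (14.3%), among them 90 TRE5 elements (9.34%) and 89 TRE6 elements (23.9%). At the other end, ratios of -1 or less were found in 96 elements (3.74%), 45 of them TRE5 (4.67% of TRE5) and 10 TRE6 (2.68% of TRE6). TRE6 elements took 14.5% of the DNA reads and 18.5% and 18.4% of the RNA reads of replicates 1 and 2. TRE5 elements took 34.8% of the DNA reads and 28.0% and 28.1% of the RNA reads. The 100 highest elements were 22 TRE5, 31 TRE6 and 47 others, and together they gave 3.05% of the reads of DNA replicate 1 and 23.4% of those of RNA replicate 1.

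**Figure D1:**
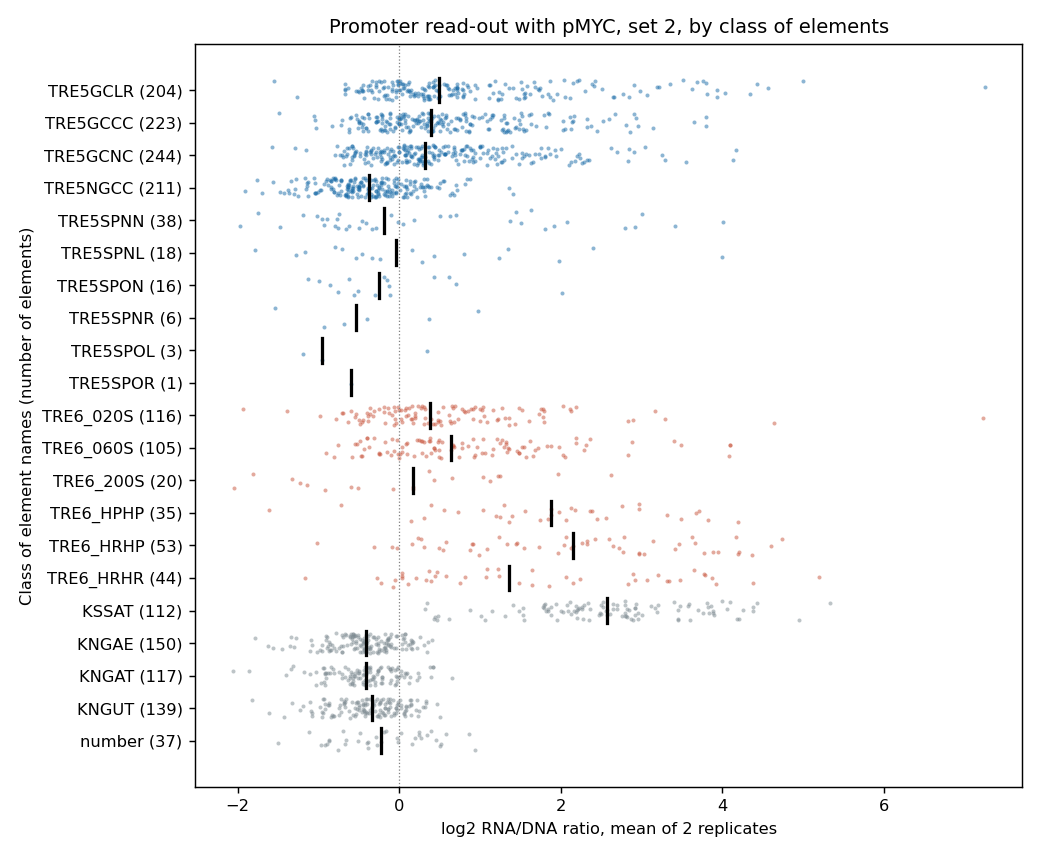
Log2 RNA/DNA ratio (x axis, mean of 2 replicates) of each element, by class of element names (y axis, with the number of elements); points are elements, black bars class medians, and "number" stands for elements named by a number alone. The 3 TRE6 H classes have medians from 1.36 to 2.15, the TRE5GC classes from 0.32 to 0.49, and TRE5NGCC a median of -0.37 with no element above 1.42.

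The names divide TRE5 into classes by their letters, whose meaning is not given in the sources used here. The 671 elements of TRE5GCLR, TRE5GCCC and TRE5GCNC had a median log2 ratio of 0.41. Of them, 408 were called higher (60.8%) and 124 lower (18.5%), against 51.6% and 27.7% over all elements. TRE5GCLR was the highest of the 3, with a median of 0.49, quartiles of -0.00 and 1.55 and a range from -1.55 to 7.25. TRE5GCCC had a median of 0.40 and TRE5GCNC one of 0.32. These classes overlapped almost fully with each other, and their medians stayed above 0 when the ratios were centred on all elements (0.25, 0.16 and 0.08).

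TRE5NGCC lay lower and spanned a narrower range. Of its 211 elements, 28 were called higher (13.3%) and 123 lower (58.3%). The median was -0.37, 2 reached a ratio of 1 and 25 lay at -1 or less. The class held 6.56% and 6.59% of the DNA reads and 2.60% and 2.65% of the RNA reads. Of the 406 KNG elements outside TRE5 and TRE6, set beside it for its low level, 25 were called higher (6.16%) and 266 lower (65.5%). The KNG median was -0.40. The highest TRE5NGCC element, TRE5NGCC0092.rev, had ratios of 1.52 and 1.31 (mean 1.42 ± 0.15, SD, n = 2), and its fwd partner had 1.36. TRE5NGCC0153.fwd was the lowest, at -1.94 and -1.87 (mean -1.90 ± 0.05).

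The 82 elements of the TRE5SP classes were few but spread widely. Their median was -0.29, with 30 called higher (36.6%) and 39 lower (47.6%), against 51.6% and 27.7% over all elements. Within TRE5SPNN, 15 of 38 were called higher (39.5%) and 17 lower (44.7%). The TRE5SPNN ratios ran from -1.97 in TRE5SPNN0085.rev (SD 0.55) to 4.01 in TRE5SPNN0074.fwd (SD below 0.01). TRE5SPNL, with 18 elements, ran from -1.79 in TRE5SPNL0031.rev to 3.99 in TRE5SPNL0026.rev. In TRE5SPON the highest of 16 elements was TRE5SPON0001.fwd at 2.01, and in TRE5SPNR the highest of 6 was TRE5SPNR0022.rev at 0.97. The medians of TRE5SPNN (-0.19) and TRE5SPNL (-0.04) lay above 0, at 0.03 and 0.18, when the ratios were centred on the number-named elements. As deposited, the medians in replicates 1 and 2 were -0.19 and -0.01 for TRE5SPNN. For TRE5SPNL they were -0.22 and 0.10, so its sign differed between replicates. The remaining 4 elements were 3 of TRE5SPOL, between -1.19 and 0.34, and TRE5SPOR0001.fwd at -0.59.

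Within TRE6, the classes whose letters begin with H lay well above those ending in S. The 132 elements of TRE6_HPHP, TRE6_HRHP and TRE6_HRHR had a median log2 ratio of 1.93, and 64 of them (48.5%) reached 2. Of the 132, 114 were called higher (86.4%) and 5 lower (3.79%), against 51.6% and 27.7% over all elements. The 132 took 2.13% and 2.11% of the DNA reads and 5.95% and 5.85% of the RNA reads. TRE6_HRHP had the highest median of the 3, at 2.15 (2.24 and 2.05 in replicates 1 and 2), with 47 of 53 elements called higher (88.7%). TRE6_HPHP had a median of 1.89 (1.88 and 2.02), close to it in replicate 2, with 32 of 35 called higher (91.4%). TRE6_HRHR had one of 1.36 (1.37 and 1.39) with 35 of 44. Outside TRE5 and TRE6, the KSSAT class was still higher, with all 112 elements called higher and a median of 2.58.

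The 241 elements of TRE6_020S, TRE6_060S and TRE6_200S had a median of 0.48. Of them, 153 were called higher (63.5%), 47 lower (19.5%) and 25 had a ratio of 2 or more (10.4%). Their medians were 0.38, 0.65 and 0.17 with 116, 105 and 20 elements. The median of TRE6_200S was -0.07 when the ratios were centred on all elements. Coverage differed too: of the element names found in any of the 3 promoter tables of set 2, 92.8% of TRE6_020S but 41.7% of TRE6_200S were measured with pMYC. The H classes were thinly covered as well, at 48.9% of TRE6_HRHR, 57.4% of TRE6_HPHP and 65.4% of TRE6_HRHP, against 80.4% over all names. In TRE5, coverage was 48.1% in TRE5SPNN, 39.0% in TRE5SPON and 30.0% in TRE5SPNR, the lowest of the TRE5 and TRE6 classes. The levels of these thinly covered classes describe the elements measured and not the whole class.

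The 2 highest ratios of the table belonged to 1 TRE5 and 1 TRE6 element. TRE5GCLR0189.rev had a signal of 32.0 and 38.8 in the DNA libraries and 5329 and 5442 in the RNA libraries, from 180 and 219 DNA reads and 7752 and 8691 RNA reads. TRE6_020S0033.rev had a signal of 66.3 and 68.2 in DNA and 10028 and 10125 in RNA, from 373 and 385 DNA reads and 14588 and 16169 RNA reads. For both elements, chosen for their high ratios, every RNA value was far above every DNA value. RNA and DNA values did not overlap in 2265 of all 2569 elements. The log2 ratio of TRE5GCLR0189.rev was 7.25 ± 0.17 (SD, n = 2; SE 0.08, limma adjusted p = 1.3e-18), or 153-fold. That of TRE6_020S0033.rev was 7.23 ± 0.02 (SE 0.04, limma adjusted p = 9.3e-21), or 150-fold, and the SDs of the 2 elements overlap. The next element of either family was TRE6_HRHR0030.fwd, at 5.20 ± 0.02.

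For comparison, RSV.fwd, whose name matches a strong viral promoter in common use, had a ratio of 4.83 ± 0.01, and the highest KSSAT element, KSSAT0004.rev, had 5.34 ± 0.02. RSV.rev was lower, at 2.42 ± 0.03. TRE5GCLR0170.fwd, at 5.05 and 4.96 (mean 5.00 ± 0.06), thus lay above RSV.fwd in both replicates. TRE6_HRHP0032.fwd, at 4.79 and 4.69, TRE6_020S0044.fwd, at 4.64 and 4.64, and TRE6_HRHP0040.fwd, at 4.65 and 4.55, lay below RSV.fwd in both. Of the 10 highest elements 5 were TRE6 and 2 TRE5, and of the 50 highest 16 and 12.

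**Figure D2:**
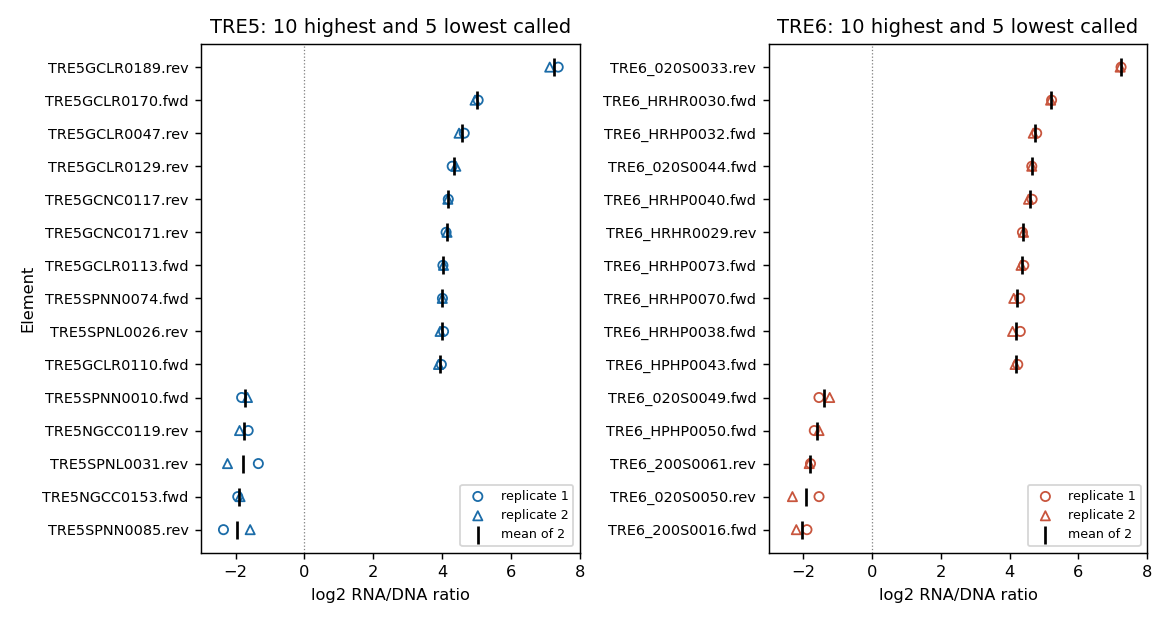
Log2 RNA/DNA ratio (x axis) of the 10 highest and 5 lowest called TRE5 elements (left) and TRE6 elements (right), 1 orientation per locus; circles are replicate 1, triangles replicate 2 and black bars their mean. The replicates of the high elements nearly coincide, and those of TRE5SPNN0085.rev, TRE5SPNL0031.rev and TRE6_020S0050.rev lie farthest apart.

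Below these, the high TRE5 elements came from 4 classes. TRE5GCLR gave TRE5GCLR0047.rev at 4.57 ± 0.11, TRE5GCLR0129.rev at 4.35 ± 0.07, TRE5GCLR0113.fwd at 4.03 ± 0.01 and TRE5GCLR0110.fwd at 3.94 ± 0.06. TRE5GCNC gave TRE5GCNC0117.rev at 4.17 ± 0.01 and TRE5GCNC0171.rev at 4.13 ± 0.02. TRE5SPNN0074.fwd and TRE5SPNL0026.rev completed the 10. Some neighbours in this order had replicates that overlapped, such as TRE5SPNN0074.fwd (4.01 and 4.01) and TRE5SPNL0026.rev (4.04 and 3.94). Others did not, such as TRE5GCLR0047.rev (4.65 and 4.49) and TRE5GCLR0129.rev (4.29 and 4.40). The highest TRE5GCCC element, TRE5GCCC0079.rev, followed at 3.80 ± 0.07.

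The high TRE6 elements were mostly from the H classes. After the 5 already given, they were TRE6_HRHR0029.rev at 4.39 ± 0.02, TRE6_HRHP0073.fwd at 4.37 ± 0.06, TRE6_HRHP0070.fwd at 4.21 ± 0.12, TRE6_HRHP0038.fwd at 4.20 ± 0.16 and TRE6_HPHP0043.fwd at 4.20 ± 0.06. The last 3 are within their SDs of each other. The highest TRE6_060S element, TRE6_060S0044.rev, had ratios of 4.41 and 3.79 from 35 and 51 DNA reads, the widest spread among these high elements. TRE6_200S0063.fwd was the highest of its class, at 2.62 ± 0.11.

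The lowest called elements mostly had few RNA reads, and some of them had a wide spread between replicates. TRE6_200S0016.fwd had a signal of 139 and 145 in DNA and 37.1 and 31.3 in RNA, with ratios of -1.89 and -2.20 (mean -2.05 ± 0.22, SE 0.13, limma adjusted p = 1.2e-09). TRE6_020S0050.rev had ratios of -1.54 and -2.31, and TRE6_200S0061.rev had -1.79 and -1.82 from 8 and 8 RNA reads. In each of these elements, chosen for their low ratios, both RNA values lay below both DNA values. Over all 2569 elements, the RNA and DNA values did not overlap in 2265. TRE6_HPHP0050.fwd, at -1.61 ± 0.10, and TRE6_HRHR0065.fwd, at -1.16 ± 0.45, were low members of otherwise high classes. Among TRE5GC classes, the lowest were TRE5GCNC0025.fwd at -1.57 ± 0.04, TRE5GCLR0149.fwd at -1.55 ± 0.04 and TRE5GCCC0172.rev at -1.48 ± 0.29. The calls of TRE5SPOL0001.fwd (0.34, limma adjusted p = 0.017), TRE5SPNR0021.rev (-1.53, limma adjusted p = 0.0016), TRE5SPOR0001.fwd (limma adjusted p = 0.0029) and TRE6_060S0004.rev (-0.91, limma adjusted p = 0.048) were lost without DNA replicate 2.

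Whether an element's promoter level depends on its orientation was asked for loci measured both ways, 409 of TRE5 and 142 of TRE6. The difference between fwd and rev was taken within each library, so the zero of the scaling cancels, and was compared between RNA and DNA libraries with limma over 1093 loci. The fwd element was called higher at 404 loci (37.0%) and the rev element at 230 (21.0%), 58.0% in all. At TRE5 loci these counts were 158 and 76 (38.6% and 18.6%), and at TRE6 loci 57 and 42 (40.1% and 29.6%). For both families these counts were lower when either DNA library was left out and higher when either RNA library was left out. In such a fit the single library left in its group is assumed to vary like the other group. The cause of these shifts was not tested.

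The excess of fwd calls was uneven over the classes. TRE5GCNC had 59 loci with fwd higher and 17 with rev higher of 113, and a median difference of 0.31. TRE5GCCC had 31 and 22 of 100, TRE5GCLR 31 and 16 of 90, and TRE5NGCC 26 and 17 of 85. In TRE6, TRE6_020S had 25 and 17 of 55 loci and TRE6_060S 21 and 8 of 44, but TRE6_200S had 1 and 4 of 5, with a median difference of -0.61. Of the H classes, TRE6_HRHP had 6 and 8 of 21, TRE6_HPHP 2 and 4 of 8 and TRE6_HRHR 2 and 1 of 9. How far these class counts differ from each other was not tested, since loci are not replicates.

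Across loci, fwd and rev ratios correlated with an r of 0.79 in TRE5 and 0.73 in TRE6; both orientations were read in the same libraries. Among classes the r was highest in TRE5GCLR, at 0.86 over 90 loci. It was 0.42 in TRE5NGCC over 85 loci, whose range of levels is narrow, 0.11 in TRE5SPNN over 8 loci and -0.24 in TRE5SPNL over 7. A difference of at least 1 was found at 44 TRE5 and 34 TRE6 loci, and was called at all but 1 TRE6 locus. Over all 1093 loci such a difference was found at 133. The 2 orientations were called on opposite sides of 0 at 34 of 409 TRE5 loci, with fwd higher and rev lower at 27. At TRE6 loci this was so at 10 of 142, with fwd higher and rev lower at 7. Over all 1093 loci the opposite calls were 73, with fwd higher and rev lower at 57. These opposite calls depend on the zero of the scaling.

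**Figure D3:**
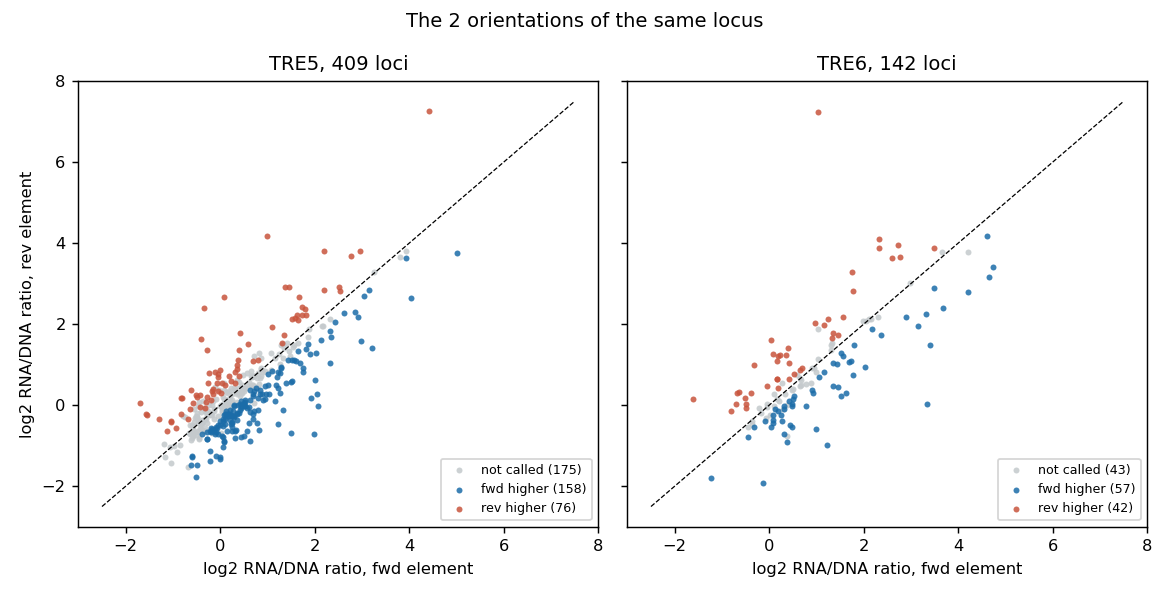
Log2 RNA/DNA ratio of the fwd element (x axis) and of the rev element (y axis) at 409 TRE5 loci (left) and 142 TRE6 loci (right), mean of 2 replicates; colours give the limma call of the difference and the dashed line marks equal ratios. The difference was not called at 175 TRE5 and 43 TRE6 loci, and TRE6_020S0033, at 1.03 fwd and 7.23 rev, lies farthest from it.

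TRE6_020S0033 had the largest orientation difference of TRE5 and TRE6. Its fwd element had a signal of 63.5 and 61.3 in DNA and 139 and 117 in RNA, while its rev element had nearly the same DNA signal, 66.3 and 68.2, and an RNA signal of 10028 and 10125. The DNA values were alike and the RNA values of the orientations were far apart in both replicates. The fwd ratio was 1.03 ± 0.14 and the difference fwd minus rev was -6.19 (SE 0.13, limma adjusted p = 2.4e-04). TRE5GCLR0189 also favoured rev, by 2.82 on the log2 scale (fwd minus rev -2.82, SE 0.09, limma adjusted p = 2.4e-04), but its fwd element was itself high, at 4.43 ± 0.05. The 2 highest elements of the table thus differed in how much of their level the fwd copy shared.

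At 4 other TRE5 loci the rev element was also much higher than the fwd element. TRE5GCNC0117 had 1.00 ± 0.10 fwd and 4.17 ± 0.01 rev (difference -3.18, SE 0.09). TRE5SPNL0001 had -0.34 ± 0.01 fwd and 2.40 ± 0.10 rev, and its DNA reads were unequal, at 9338 fwd and 366 rev. TRE5GCCC0081 had 0.07 ± 0.11 fwd and 2.67 ± 0.22 rev, and TRE5SPNN0011 had -0.41 ± 0.44 and 1.64 ± 0.16. In each of these loci, chosen for their large differences, the rev ratios lay above the fwd ratios in both replicates. TRE5SPNN0011 was the least precise (SE 0.23).

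Among loci with fwd higher, TRE6_HRHR0016 had the largest difference. Its fwd element had a signal of 53.1 and 44.4 in DNA and 516 and 476 in RNA, and its rev element 34.5 and 33.6 in DNA and 30.9 and 38.8 in RNA. The fwd ratio was 3.35 ± 0.10 and the rev ratio 0.04 ± 0.25, so the fwd and rev values did not overlap (difference 3.31, SE 0.18, limma adjusted p = 4.6e-04). TRE5SPNL0011 had 1.98 ± 0.39 fwd and -0.71 ± 0.11 rev, and TRE5GCLR0022 had 1.50 ± 0.09 and -0.67 ± 0.03, both with opposite signs. TRE6_060S0072, TRE6_020S0021 and TRE6_020S0010 favoured fwd by 1.91, 2.21 and 1.59. TRE6_020S0050 favoured fwd by 1.81 with 41 RNA reads on its rev element (SE 0.28), and its call was lost without DNA replicate 1 (limma adjusted p = 0.067) and without DNA replicate 2 (limma adjusted p = 0.076).

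TRE6_020S, TRE6_060S and TRE6_200S names share running numbers, and elements with the same number and orientation had related levels. This comparison was chosen after the data were seen, and the sources used here do not say what a shared number means. Between TRE6_020S and TRE6_060S, 92 pairs from 54 numbers correlated with an r of 0.83 (rho 0.77). Between TRE6_200S and TRE6_060S the r was 0.90 over 17 pairs, and between TRE6_200S and TRE6_020S it was 0.67 over 15. In the 40 other pairings of TRE5 and TRE6 classes with at least 15 pairs of the same number and orientation, r ran from -0.58 to 0.39. Its median was -0.04. All pairs were read in the same 4 libraries.

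Within pairs, TRE6_060S elements were more often called higher than TRE6_020S elements, and TRE6_200S elements more often lower than either. With limma over 124 pairs, 87 were called (70.2%). The TRE6_060S element was called higher than the TRE6_020S element in 49 of 92 pairs and lower in 11, with a median difference of 0.24. In fwd pairs these counts were 28 and 4 of 44 (median difference 0.43) and in rev pairs 21 and 7 of 48 (0.14). The TRE6_200S element was called lower than TRE6_020S in 10 of 15 pairs and higher in 3 (median -0.51), and lower than TRE6_060S in 13 of 17 and higher in 1 (median -0.93). Over all 124 pairs, 53 were called with the class of the larger number (060S or 200S against 020S, 200S against 060S) higher (42.7%) and 34 with it lower (27.4%). These counts were 35 and 19 without DNA replicate 1, and 34 and 19 without DNA replicate 2.

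**Figure D4:**
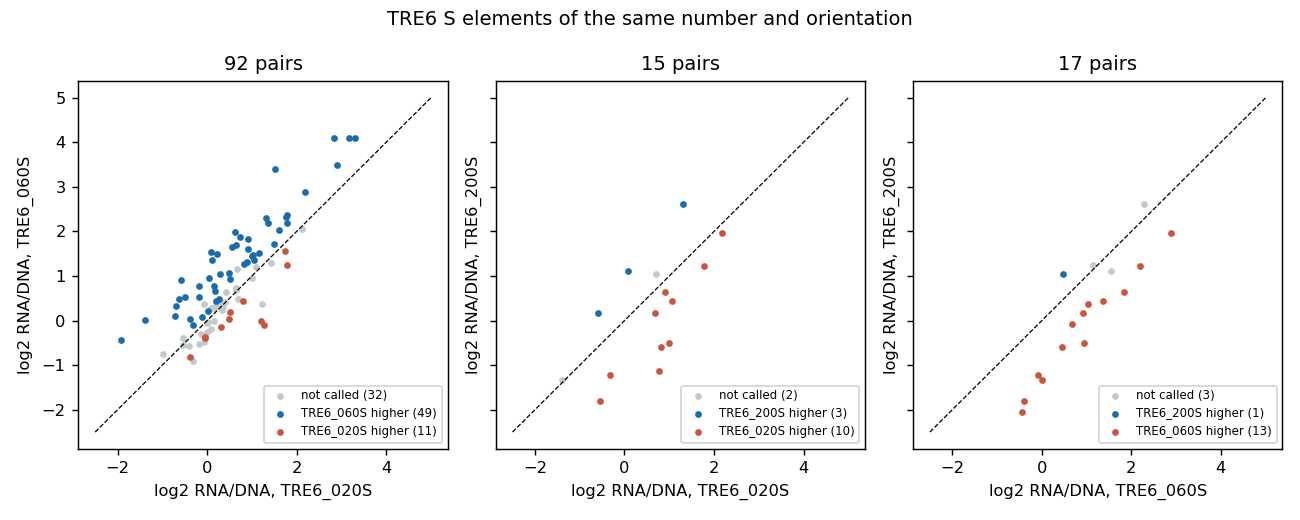
Log2 RNA/DNA ratio (mean of 2 replicates) of TRE6 elements with the same number and orientation, 1 pairing of classes per panel; colours give the limma call of the difference and the dashed line marks equal ratios. In the left panel 49 of 92 pairs are called higher in TRE6_060S, and in the right panel 13 of 17 are called lower in TRE6_200S.

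Single pairs differed by much more than these medians. TRE6_060S0072.fwd had 3.40 ± 0.05 against 1.53 ± 0.03 in TRE6_020S0072.fwd, a difference of 1.87 (SE 0.06, limma adjusted p = 6.4e-04). TRE6_060S0010.rev had 0.92 ± 0.08 against -0.59 ± 0.03 in TRE6_020S0010.rev, a change of sign with a difference of 1.51 (SE 0.05). At number 0010 fwd, the levels were 1.00 in TRE6_020S, 0.95 in TRE6_060S and -0.51 in TRE6_200S, so the TRE6_200S element alone lay below 0. TRE6_200S0009.fwd lay 1.92 below TRE6_020S0009.fwd (difference -1.92, SE 0.38). Against the common direction, TRE6_200S0063.fwd lay 1.31 above TRE6_020S0063.fwd (2.62 against 1.31, SE 0.08), and TRE6_060S0074.rev lay below TRE6_020S0074.rev (-0.10 ± 0.56 against 1.27 ± 0.14, limma adjusted p = 0.049). Of 13 numbers and orientations found in all 3 classes, 2 fell in mean ratio from 020S over 060S to 200S, 1 rose and 10 did neither. Both steps of the fall were called at 0032 rev. At 0010 fwd the step from 020S to 060S was not called (-0.05, limma adjusted p = 0.59). For the rise, at 0063 fwd, the step from 060S to 200S was not called (0.33, limma adjusted p = 0.057).

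Elements outside TRE5 and TRE6 link the ratios to set 1, which was made from other libraries and scaled separately. Over 1145 shared elements, the ratios correlated with an r of 0.97 (rho 0.94), and RSV.fwd had 4.83 here and 4.85 ± 0.03 in set 1. In set 1, 55.7% of 1534 elements were called higher and 25.7% lower. Of the shared elements, 500 were called higher in both sets, which is 93.5% of those called higher here and 85.2% of those called higher in set 1. Lower calls were shared for 267 elements (75.0% and 82.7%), and 12 had opposite calls. The median of the shared KSSAT elements was 2.57 here and 3.16 in set 1.

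The enhancer barcode of the same plasmids gave another order for some of the highest elements. TRE5GCLR0189.rev had an enhancer ratio of 1.54 ± 0.15 and TRE6_020S0033.rev one of 1.14 ± 0.30, below the 3.81 ± 0.05 of TRE5GCLR0047.rev and the 3.90 ± 0.16 of TRE6_HPHP0043.fwd. Few reads lay behind the first pair: 83 DNA and 86 RNA reads for TRE5GCLR0189.rev and 145 and 114 for TRE6_020S0033.rev. TRE5GCLR0047.rev had 261 and 1305, and TRE6_HPHP0043.fwd 635 and 3383. With the other minimal promoters in the same libraries, TRE5GCLR0189.rev had promoter ratios of 4.48 ± 0.03 (pGAPDH) and 7.11 ± 0.28 (pAPOBEC3F), and TRE6_020S0033.rev had 5.65 ± 0.06 (pGAPDH); these tables were scaled separately and their levels are not compared.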

How the data were processed

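Libraries of paBC RNA (2) and DNA (2) from K-562 cells were compared. The authors deposited scaled signal values per element and library; their unit is not given in the sources used here. Per the submitters' processing notes, fastp, edgeR and limma were used; the aligner and the barcode matching are not given in the sources used here. The deposited log2 fold changes, p-values and moderated t and log odds scores are the authors' limma output, per the file headers, and served only as a check: the own mean ratio differed from the deposited log2 fold change by at most 0.053, and 8 elements listed without a test by the authors were kept. All values of a library were whole multiples of 1 step (tolerance 0.02), which was taken as 1 read.

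Here, limma 3.58.1 (R 4.3.3; lmFit, eBayes with trend) was run on log2(signal + 0.5 reads), RNA against DNA, over 2569 elements. Orientation and same-number differences were taken within each library first, orientation with at least 20 DNA reads per element. Adjusted p-values (Benjamini-Hochberg) under 0.05 were called. The fits were tested on simulated data. Classes were the leading letters of names; class levels have no test. Of all elements, every one had at least 42 DNA reads. DNA libraries differed by slightly more than sampling noise (chi-square per degree of freedom 1.16) and RNA libraries by more (2.09). All were kept as separate replicates, though these values cannot show that the libraries are independent. Same-numbered RNA and DNA libraries did not deviate together (r = -0.08), and no replicate pairing was used.

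Named elements are called ones, 1 orientation per locus: the 10 highest and 5 lowest of TRE5 and of TRE6, the highest and lowest of each class, the 5 highest others and RSV; for orientation, the 5 largest called differences either way per family. TRE6_200S0010.fwd and the other same-number pairs were chosen after their values were seen. Members and lists were chosen with earlier results of these data known. Alternatives were another constant, centring, trend, block, thresholds, filters and leaving out libraries.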

Additional observations from a re-analysis of the deposited data

How the results depend on the processing

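Centred on all elements, 82 TRE6 elements were called lower; centred on the number-named elements, lower calls were 447 over all, 185 in TRE5 and 31 in TRE6. With an absolute log2 ratio of at least 1, 719 elements were called higher and 96 lower, 218 and 45 in TRE5, and 172 and 10 in TRE6. For orientation, leaving out each library in turn gave 50 to 181 TRE5 loci with fwd higher and 27 to 94 with rev higher, and 24 to 63 and 19 to 46 for TRE6; the low counts came without a DNA library. At an adjusted p under 0.01 they were 101 and 46 for TRE5 and 37 and 24 for TRE6, and with a difference of at least 1 they were 29 and 15, and 19 and 14. For same-number pairs, leaving out each library gave 34 to 55 with the class of the larger number higher and 19 to 37 lower; at an adjusted p under 0.01, 20 were lower, and with a difference of at least 1 there were 17 and 13. The TRE5 median minus that of all elements was -0.077 to -0.068 when a replicate was left out and -0.059 with both orientations averaged per locus; for TRE6 it was 0.55 to 0.59 and 0.68. That of TRE5SPNL turned to 0.063 per locus. With a replicate block, TRE5 had 464 higher and 283 lower calls, TRE6 265 and 50, and all elements 1323 and 699. For orientation the block gave 160 fwd and 77 rev calls at TRE5 loci, and 53 and 36 at TRE6 loci. Same-number pairs had 44 calls with the class of the larger number higher and 28 lower, against 53 and 34 without the block. Among named elements the block ended the call of TRE6_060S0004.rev alone. In all, 129 recomputed counts and medians, those of the block among them, kept their direction, with counts within 1.5 times the reported one. Some of these could not have changed and say nothing on stability. Every element had at least 42 DNA reads, so a minimum of 20 or none removes no element. Centring shifts all elements alike, so it cannot change a median minus that of all elements. Of 687 values for 53 named elements and 180 for 20 named loci, 10 and 2 lost their call and 0 changed sign. The cause of these changes was not tested, apart from the thresholds themselves. The planned edgeR and DESeq2 fits were not run, and the values were analysed as deposited, as scaled signal. The recovered reads were used for depths, shares of reads, the spread by RNA reads and the chi-square between libraries. They also set the added constant, the filters and the simulated data. Elements with 5 to 318 RNA reads had a median SD between replicates of 0.17 and a median log2 ratio of -0.30.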
